A study of Mus musculus with 13 samples.

Results

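Within a single bleomycin group, lungs can differ in how much scar-forming RNA they carry, and the 8 bleomycin libraries of this mouse study were divided by their level of Fn1, the gene for the matrix glycoprotein fibronectin. The groups were chosen by a measured value: the 8 libraries were ranked by Fn1 CPM (counts scaled to the library total) within each batch, the 2 highest of each batch formed the high Fn1 group and the other 2 the low Fn1 group. This gave 4 high and 4 low libraries out of 13 in the series, the other 5 being saline controls. Fn1 itself therefore holds no evidence, and any gene that tracks Fn1 from library to library was bound to differ. No measure of fibrosis other than RNA was used here, so the groups are named by their Fn1 level and not as more or less fibrotic lungs.

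All 13 libraries came from lungs of male C57Bl/6 mice aged 7 to 8 weeks, taken on day 21 after treatment with bleomycin or saline. Given to mice, bleomycin breaks DNA in lung cells and brings on scarring, which makes it a common model of pulmonary fibrosis. RNA of all kinds was taken from coronal slices 10 µm thick of formalin-fixed, paraffin-embedded lung, and 8 ng of it went into each library. The batch label, whose meaning the labels do not explain, puts bleomycin replicates 5 to 8 and all saline libraries in batch 1 and bleomycin replicates 1 to 4 in batch 2. The high group held replicates 6 and 8 of batch 1 and replicates 1 and 4 of batch 2, and the low group held replicates 5 and 7 of batch 1 and replicates 2 and 3 of batch 2. Values of 4 libraries below keep these orders.

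Some libraries call for care. The labels of replicate 8 conflict, since its title reads control and its treatment field and library name read bleomycin; its Spp1 level of 899 CPM lay far above the saline range of 20.6 to 38.3 CPM, and it was kept as bleomycin. The high libraries of batch 1 were deeper than its low ones (25696916 and 28885129 counts against 21727502 and 23129514), whereas those of batch 2 were shallower (6337147 and 6997429 against 10451337 and 12982422). Genes that mark heart muscle, a tissue that can be cut along with lung, summed to 1779, 4409, 246 and 3228 CPM in the high libraries and 12105, 2099, 7930 and 2628 CPM in the low ones, against 1781 to 9682 CPM in saline, so replicates 5 and 2 of the low group carried the most among bleomycin libraries. The 18S ribosomal RNA gene took 3.91% of counts in replicate 6 and 21.3% in replicate 8. Lung markers such as Sftpc and Scgb1a1 were present in every library, at 969.9 to 4427 and 1790.5 to 11152 CPM.

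**Figure D1:**
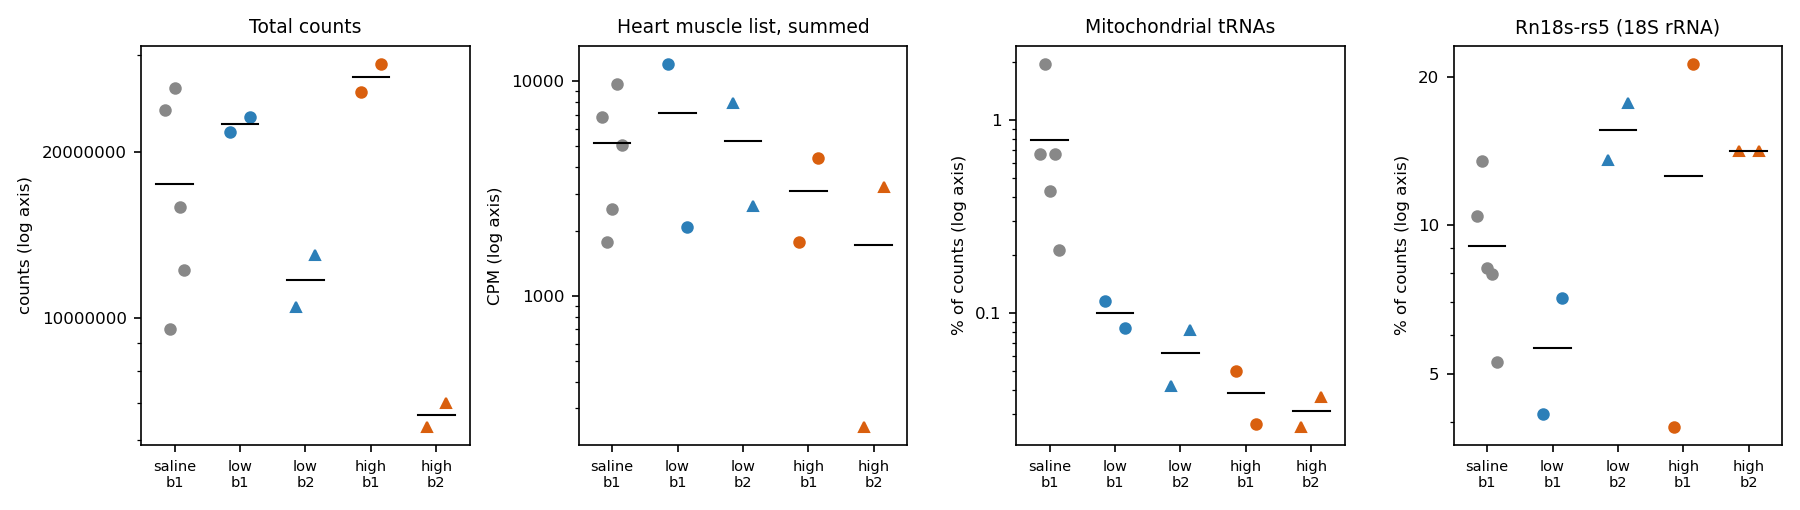
Total counts, summed CPM of the heart muscle list, and percent of counts in mitochondrial transfer RNAs and in 18S ribosomal RNA, each on a log axis, for every library by group and batch (b1, b2); bars are arithmetic means of 2 bleomycin or 5 saline libraries. The high libraries are the deeper ones in batch 1 and the shallower ones in batch 2, and within each batch they hold the smaller share of counts in mitochondrial transfer RNAs.

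Fibrosis in the lung follows injury of the alveolar epithelium: fibroblasts turn into matrix-producing cells, collagens and fibronectin are laid down and cross-linked, and macrophages derived from monocytes gather in the scar. Fibronectin is assembled into fibrils at the fibroblast surface and serves as a scaffold for collagen. The thin alveolar type 1 cells, which carry gas exchange, and the surfactant-making type 2 cells are lost or altered where the scar forms.

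Fn1 stood at 5920.5, 8102, 8084 and 3438 CPM in the high and 1706, 3798, 3197 and 2499.7 CPM in the low libraries, on the scale of CPM corrected by a normalization factor per library, and at 372 to 453 CPM in saline. The 2 groups overlapped across batches, since high replicate 4 lay below low replicate 7. On the scale of plain CPM that set the groups, the last library inside the high group of batch 2 was replicate 4 with 3361 CPM, and the first outside was replicate 2 with 3006 CPM. In batch 1 these were replicate 6 with 6699 CPM and replicate 7 with 4196 CPM. All 8 libraries exceeded every saline library, so the comparison is between degrees of a raised Fn1 level.

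Across 19986 genes other than Fn1, no gene passed edgeR's quasi-likelihood test with batch as a term at an adjusted p of 0.05 (0%), and the lowest adjusted p was 0.639. An unadjusted p under 0.05 was reached by 773 genes on the higher side (3.87%) and 642 on the lower side (3.21%). DESeq2 called 67 genes and limma-voom 0. A fit with log2 Fn1 as a continuous covariate in place of the 2 groups called 499 of 21110 genes in the direction of Fn1 (2.36%) and 373 against it (1.77%). Because Fn1 of these same libraries set the groups and the covariate, these tests only sort and describe genes. Counts of genes that pass them, here and below, are not evidence. As a plain count, a gene is called separated here when both high libraries lay on the same side of both low libraries in each batch: 830 genes (4.15%) were separated on the higher side and 692 (3.46%) on the lower. These shares are the background for the separated counts of every list below. The median log2 difference, high minus low, over all tested genes was -0.01. It was positive in 9691 genes and negative in 10295, which is the background for the positive and negative counts of the lists.

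**Figure D2:**
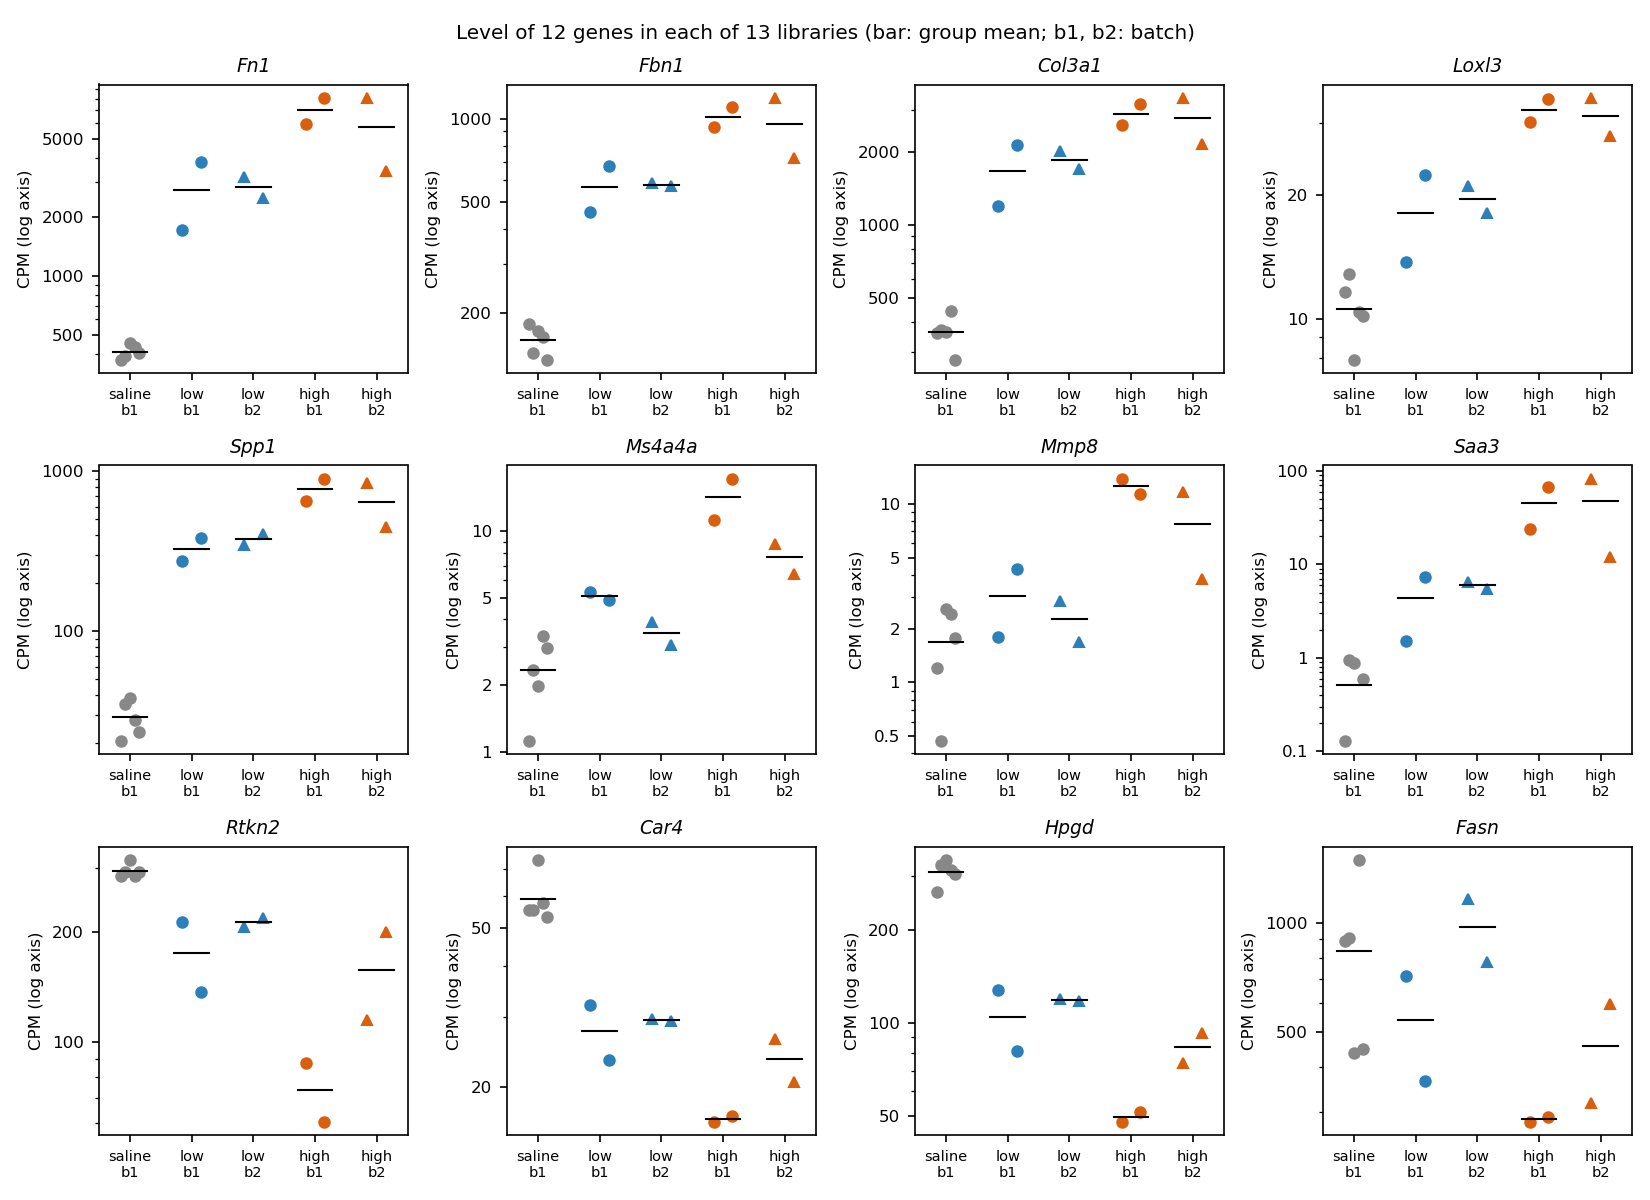
CPM on log axes of 12 genes in each of 13 libraries, by group and batch (b1, b2); bars are arithmetic means of the 2 bleomycin or 5 saline libraries, and 1 saline library at 0 for Saa3 is not drawn. Fn1 set the groups; Fbn1, Col3a1, Loxl3, Spp1 and Ms4a4a have all 4 high libraries above all 4 low ones, and Rtkn2, Car4, Hpgd and Fasn have the high libraries below the low ones within each batch.

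Genes of the extracellular matrix stood higher in the high Fn1 libraries. In a list of 35 matrix glycoproteins and collagens that leaves out Fn1, 31 had a positive difference, 15 were separated on the higher side and 0 on the lower, and the median log2 difference was 0.60 (0.75 in batch 1 and 0.54 in batch 2). Fbn1, which encodes the microfibril protein fibrillin 1, stood at 931, 1100.2, 1191 and 724 CPM in the high and 462, 674, 586 and 573 CPM in the low libraries, against 135 to 182 CPM in saline. The groups did not overlap, and the log2 difference was 0.77 ± 0.16, given here and below with its standard error from the 8-library fit. Col3a1, a fibrillar collagen, likewise kept all high libraries above all low ones, at 2597, 3164, 3361 and 2159 CPM in the high and 1206, 2151, 2020.2 and 1701 CPM in the low libraries (log2 difference 0.67 ± 0.19; saline 279 to 445 CPM). Eln, the elastin gene, reached 1918, 1926, 1628 and 1111 CPM in the high and 789, 1520.1, 840.4 and 884 CPM in the low libraries (0.69 ± 0.19). It was separated within each batch, but low replicate 7 lay above high replicate 4. The same held for Tnc, an adhesion-modulating glycoprotein, at 452, 667, 731 and 344 CPM in the high and 219, 363, 310.3 and 235 CPM in the low libraries (0.95 ± 0.27). Col1a1, the main chain of type I collagen, was at 3117, 3934, 4064 and 1899.7 CPM in the high and 924, 2299.8, 1985 and 1529 CPM in the low libraries (0.94 ± 0.34), and in batch 2 high replicate 4 lay just below low replicate 2.

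Markers of the activated, matrix-producing fibroblast went the same way, in a list that shares Col1a1, Tnc, Cthrc1, Postn and Col8a1 with the matrix list. Its median log2 difference was 0.66 (12 of 14 positive, 4 separated higher, 0 lower). The 4 were Tnc, Cthrc1, Lrrc15 and Sfrp1. Cthrc1, a secreted marker of collagen-producing fibroblasts, stood at 13.3, 15.2, 18.6 and 13.2 CPM in the high and 4.35, 11.7, 11.4 and 9.12 CPM in the low libraries (0.73 ± 0.27), with no overlap between the groups. Lrrc15, a surface protein of such cells, was at 7.70, 7.22, 9.64 and 2.34 CPM in the high and 0.902, 2.90, 1.83 and 1.18 CPM in the low libraries (1.97 ± 0.47), and in saline at 0 to 0.172 CPM; these are low levels, and high replicate 4 lay below low replicate 7. Sfrp1, a secreted Wnt inhibitor, was at 234, 204, 207 and 121 CPM in the high and 67.5, 144, 94.3 and 82.2 CPM in the low libraries (0.97 ± 0.24) and separated within each batch. Postn, the matricellular gene periostin, differed by only 0.26 ± 0.16 and was not separated in either batch. The resident alveolar fibroblast list leaned the other way in its median of -0.28, with 12 of 16 genes negative. However, 3 of its genes were separated higher and 1 lower, and its level was not separated in either batch. Among its members Mettl7a1, a methyltransferase-like gene, was at 111, 90.3, 106 and 193 CPM in the high and 176, 123, 194 and 270.5 CPM in the low libraries (-0.62 ± 0.21), while Slit2, a secreted guidance protein, stood higher in the high libraries (0.42 ± 0.12). Acta2, the smooth muscle actin that also marks myofibroblasts, had opposite signs in the batches: 277 and 301 CPM against 157 and 209 CPM in batch 1, and 169 and 185 CPM against 188 and 205 CPM in batch 2. The smooth muscle list was split in the same manner (0.31 and -0.56).

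Enzymes that process and cross-link collagen were also higher. Of 24 genes, 20 had a positive difference and 8 were separated on the higher side, with 0 on the lower and a median of 0.39. Loxl3, a lysyl oxidase that cross-links collagen and elastin, stood at 30.2, 34.4, 34.6 and 27.9 CPM in the high and 13.8, 22.4, 21.1 and 18.1 CPM in the low libraries, against 7.93 to 12.8 CPM in saline. All 4 high libraries exceeded all 4 low ones (0.75 ± 0.17). Loxl2, of the same family, was at 92.6, 107, 101 and 63.2 CPM in the high and 50.7, 81.1, 50.2 and 46.6 CPM in the low libraries (0.67 ± 0.17); low replicate 7 lay above high replicate 4. Adamts2, which trims the ends of procollagen, differed by 0.48 ± 0.16 and Fkbp10, an endoplasmic reticulum collagen chaperone, by 0.70 ± 0.21. Basement membrane genes were divided: 3 of 20 were separated higher (Col4a1, Lamb1 and Hspg2) and 3 lower (Lama3, Col4a3 and Col4a4). The laminin chain Lamb1 stood at 203, 277, 273 and 236 CPM in the high and 147, 162, 195 and 198 CPM in the low libraries (0.49 ± 0.12), whereas Lama3, a laminin chain of epithelial basement membranes, stood at 108, 85.7, 139 and 199.6 CPM in the high and 201, 146, 199.8 and 246 CPM in the low libraries (-0.63 ± 0.17). Col4a1, a chain of the widespread type IV collagen, differed by 0.42 ± 0.16, and Col4a3, a chain of specialised basement membranes such as that of the alveolus, by -0.23 ± 0.12.

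Matrix proteases and their inhibitors had 12 of 25 genes separated higher and 0 lower, with a median of 0.40. Timp1, the inhibitor of metalloproteinases, was at 46.8, 53.3, 55.3 and 13.7 CPM in the high and 10.4, 26.03, 13.2 and 9.29 CPM in the low libraries (1.52 ± 0.47), against 1.32 to 2.28 CPM in saline. High replicates 6, 8 and 1 stood apart, and high replicate 4 lay near the low libraries of its own batch. Mmp8, a collagenase stored by neutrophils, followed that pattern at 13.8, 11.3, 11.6 and 3.80 CPM in the high and 1.80, 4.31, 2.85 and 1.69 CPM in the low libraries (1.91 ± 0.39). Mmp12, a macrophage elastase, was at 90.8, 137, 193 and 49.9 CPM in the high and 28.9, 81.9, 41.7 and 25.3 CPM in the low libraries (1.43 ± 0.58), and its saline range was 0 to 1.85 CPM. In the hyaluronan list the synthase Has2 was at 23.1, 12.5, 12.5 and 4.68 CPM in the high and 4.84, 10.6, 2.85 and 2.03 CPM in the low libraries (1.47 ± 0.38) and Cemip, which is needed for hyaluronan breakdown, at 106, 119, 75.9 and 34.1 CPM in the high and 13.3, 48.9, 23.3 and 17.5 CPM in the low libraries (1.65 ± 0.46), both separated in each batch, while only 8 of the 14 genes were positive.

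Components of the TGF-β pathway, the main fibrogenic signal, differed less. Of 25 genes 20 were positive and 3 were separated higher (Lrrc32, Ltbp1 and the receptor Tgfbr2), with a median of 0.11. Lrrc32, which holds latent TGF-β at the cell surface, stood at 61.9, 58.8, 51.8 and 63.2 CPM in the high and 36.5, 47.9, 42.7 and 51.3 CPM in the low libraries (0.40 ± 0.13), and the latent TGF-β binding protein Ltbp1 at 182, 197, 191 and 161 CPM in the high and 138, 160.1, 138 and 160.02 CPM in the low libraries (0.29 ± 0.11). Neither overlapped between groups, and both differences were small. The target gene Ccn2 was at 345, 424, 298 and 134 CPM in the high and 158, 238, 169 and 134 CPM in the low libraries (0.73 ± 0.26), and Inhba, the activin A subunit, at 58.3, 78.3, 59.99 and 17.8 CPM in the high and 24.1, 40.1, 17.9 and 14.9 CPM in the low libraries (1.15 ± 0.36). Both were separated in batch 1 but not in batch 2. The growth factor receptors Pdgfrb (0.39 ± 0.11) and Fgfr1 (0.41 ± 0.12) had all high libraries above all low ones. The growth factor list (IGF, PDGF, FGF and EGF) was divided, with 17 of 25 genes positive and 8 negative. In it 3 genes were separated higher and 2 lower, and the median was 0.22, or 0.11 without replicate 1. Its level was separated in batch 1 only. In the Wnt list the secreted inhibitors went both ways: Wif1 stood at 2.06, 1.73, 0.997 and 1.17 CPM in the high and 5.29, 4.31, 3.15 and 6.92 CPM in the low libraries (-1.72 ± 0.37) and Sfrp2 at 10.2, 18.3, 22.4 and 11.4 CPM in the high and 7.14, 9.002, 8.55 and 8.44 CPM in the low libraries (0.89 ± 0.25), neither with overlap.

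**Figure D3:**
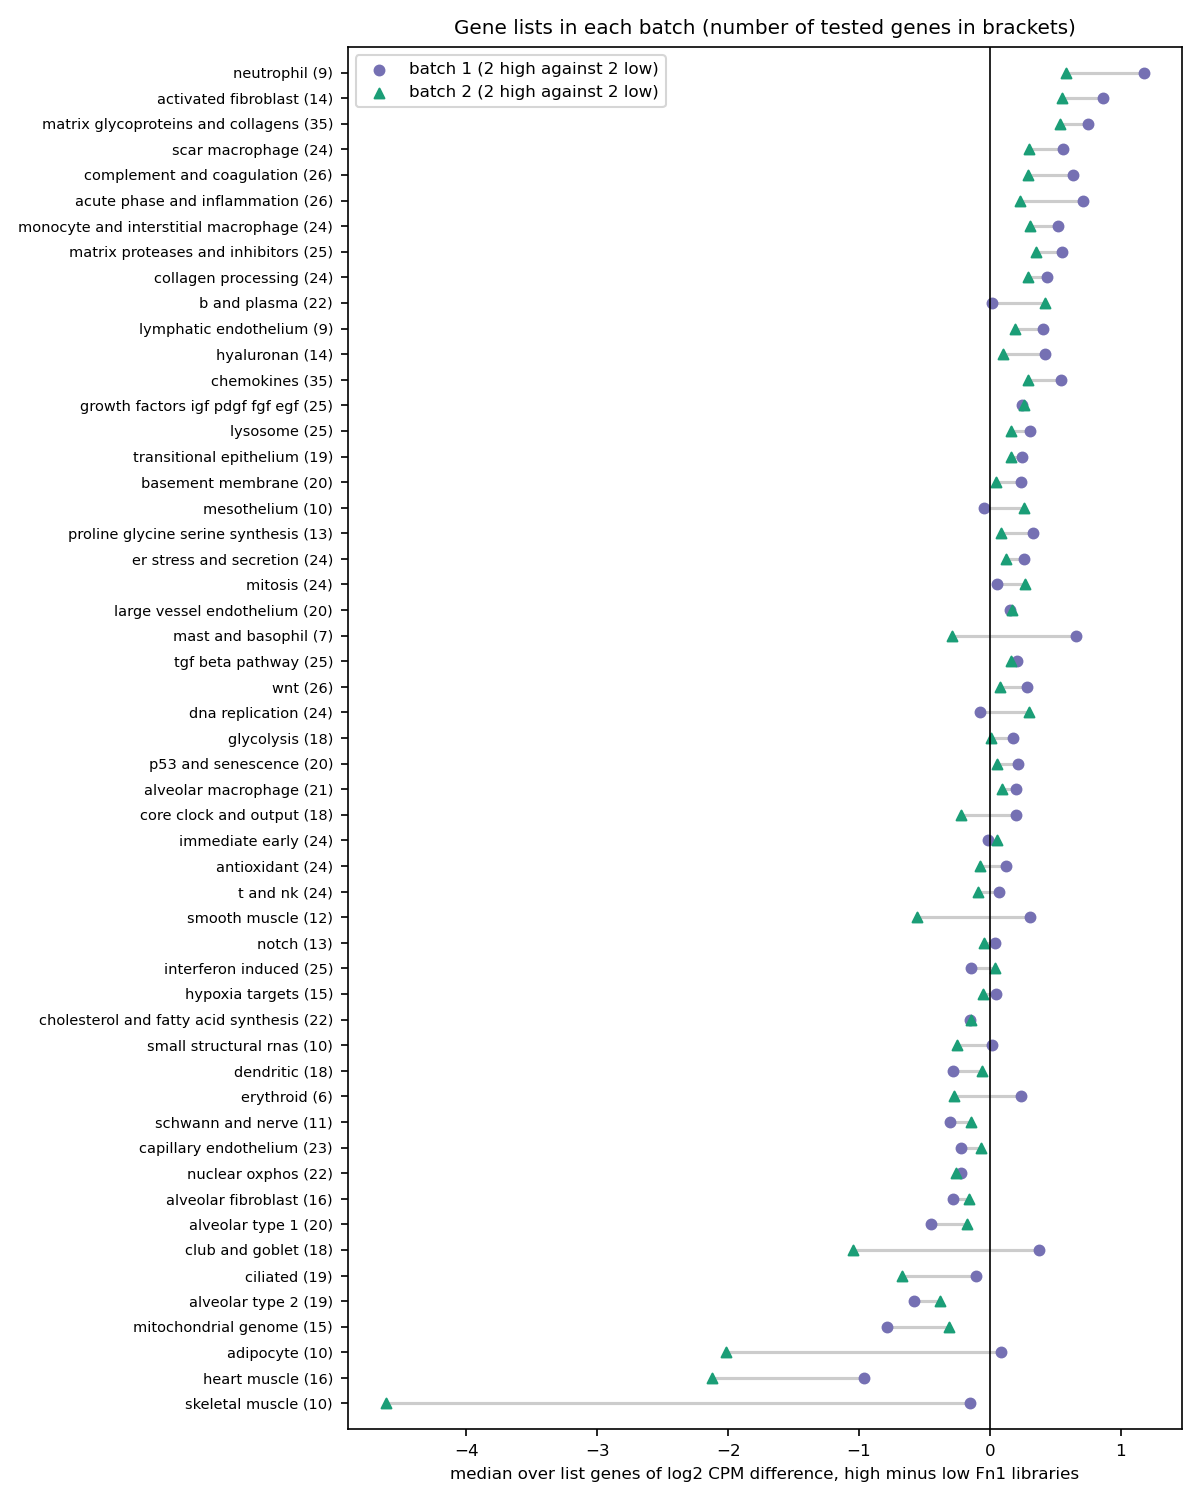
Median over the tested genes of each of 53 lists of the log2 CPM difference, high minus low Fn1 libraries, in batch 1 (circles) and batch 2 (triangles), sorted by the median of the 8-library fit; the number of tested genes is in brackets. The matrix, activated fibroblast, neutrophil and macrophage lists lie right of 0 in both batches, the alveolar type 1 and type 2 lists lie left of 0 in both, and the smooth muscle and club lists lie on opposite sides.

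Macrophage genes were higher in the high group. In the scar macrophage list, made of genes of the monocyte-derived macrophages found in fibrotic lung, 9 of 24 genes were separated higher and 1, the growth factor Pdgfa (-0.18 ± 0.11), lower, and the median was 0.44 (0.56 and 0.30 by batch). As mean log2 CPM, the list level was separated in batch 1 only. In batch 2, high replicate 4 (6.05) lay below low replicates 2 (6.32) and 3 (6.20). Spp1, which encodes osteopontin, stood at 653, 899, 839 and 447 CPM in the high and 273, 382, 346 and 403 CPM in the low libraries, against 20.6 to 38.3 CPM in saline. All 4 high libraries exceeded all 4 low ones (1.00 ± 0.22). Ctsb, a lysosomal protease, did so too at 597, 693, 679 and 499 CPM in the high and 364, 479, 481 and 449.8 CPM in the low libraries (0.47 ± 0.13), as did the protease Ctsl (0.71 ± 0.23). The lipid sensor Trem2 was at 15.5, 21.95, 24.6 and 14.03 CPM in the high and 10.5, 9.98, 14.6 and 14.2 CPM in the low libraries (0.64 ± 0.21); in batch 2 high replicate 4 lay just below both low libraries. Arg1, an arginase of alternatively activated macrophages, spread most: 26.0, 48.9, 53.3 and 2.34 CPM in the high and 3.03, 9.39, 9.97 and 1.69 CPM in the low libraries. Its difference of 2.43 ± 1.04 rested on 3 high libraries, and replicate 4 was as low as the lowest low libraries.

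The list of monocytes and interstitial macrophages had 22 of 24 genes positive, 6 separated higher and 0 lower (median 0.42, and 0.23 without replicate 5). Ms4a4a, a membrane protein of macrophages, stood at 11.3, 17.4, 8.81 and 6.43 CPM in the high and 5.33, 4.89, 3.87 and 3.04 CPM in the low libraries (1.32 ± 0.24), with saline at 1.12 to 3.36 CPM. No high library lay within the low range. Fcgr1, a high-affinity IgG receptor, was at 19.3, 17.6, 15.95 and 10.8 CPM in the high and 7.96, 13.2, 8.24 and 9.71 CPM in the low libraries (0.69 ± 0.21). The complement chain C1qb was at 147, 137, 137 and 94.4 CPM in the high and 70.4, 131, 80.1 and 86.1 CPM in the low libraries (0.48 ± 0.18), separated within batches but with low replicate 7 above high replicate 4. Genes of resident alveolar macrophages did not lean either way (median 0.07, 0 separated higher and 1 lower of 21). The lysosome list, which shares cathepsins with the scar macrophage list, had 24 of 25 positive with a median of 0.21.

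Neutrophil genes had the highest median of all lists, 1.01, over 9 tested genes of 14 listed, but they were scarce and 1 was separated. S100a8, a calcium-binding protein abundant in neutrophils, was at 20.02, 7.34, 17.6 and 4.68 CPM in the high and 4.02, 3.99, 3.05 and 4.98 CPM in the low libraries (1.62 ± 0.44), and saline libraries at 3.76 to 7.86 CPM. High replicates 6 and 1 stood apart, while replicate 4 lay within the low range. Of 35 chemokines, 28 were positive and 4 were separated higher (among them Ccl7, Ccl12 and Cxcl12; median 0.30, and 0.18 to 0.66 without single libraries). Cxcl13, which draws B cells, was at 33.2, 52.7, 51.3 and 13.7 CPM in the high and 7.01, 14.5, 15.1 and 7.94 CPM in the low libraries (1.75 ± 0.48), and Ccl7, which draws monocytes, at 13.8, 6.10, 8.64 and 2.34 CPM in the high and 1.64, 3.84, 1.63 and 2.20 CPM in the low libraries (1.69 ± 0.45). Among acute phase genes Saa3, a serum amyloid made locally in inflamed tissue, stood at 23.7, 67.8, 82.9 and 11.99 CPM in the high and 1.52, 7.32, 6.51 and 5.49 CPM in the low libraries, against 0 to 0.941 CPM in saline. The groups did not overlap, although replicate 4 was far below the other high libraries (3.17 ± 0.84). Ptx3, a soluble pattern receptor, was at 25.5, 12.8, 9.31 and 6.43 CPM in the high and 1.72, 5.87, 4.88 and 4.90 CPM in the low libraries (1.56 ± 0.49). Lcn2, a siderophore-binding acute phase protein, showed little difference (0.14 ± 0.14). Complement and coagulation genes were positive in 24 of 26 cases, with 9 separated higher and 1 lower (median 0.44). Serping1, the C1 inhibitor, was at 284, 336, 327 and 276 CPM in the high and 192, 216, 253 and 249 CPM in the low libraries (0.42 ± 0.11), and the exception was the endothelial anticoagulant Thbd at 170.3, 170.04, 224 and 251 CPM in the high and 235, 228, 255 and 292 CPM in the low libraries (-0.34 ± 0.10).

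The T and NK cell, B and plasma cell and mitosis lists held 0, 1 and 0 separated genes. Over all genes 4.15% were separated higher and 3.46% lower, so counts this small in lists of this size say little. T and NK cell genes were positive in 12 of 24 cases with a median of -0.01, and Cd3e, a T cell receptor subunit, was at 14.2, 9.99, 10.6 and 11.3 CPM in the high and 8.98, 14.8, 8.55 and 12.8 CPM in the low libraries. B and plasma cell genes were positive in 17 of 22 cases and had a median of 0.34 (0.02 and 0.42 by batch), which was 0.04 without replicate 8. Igha, the immunoglobulin A constant region, was at 35.8, 83.3, 111 and 187 CPM in the high and 83.9, 60.04, 190.5 and 309.99 CPM in the low libraries (-0.52 ± 0.33). In the mitosis list 22 of 24 genes were positive with a median of 0.16 (0.06 and 0.27 by batch), which was -0.22 without replicate 1 and -0.09 without replicate 3. Mki67, a proliferation marker, was at 129, 149, 163 and 59.1 CPM in the high and 117, 171, 133 and 52.2 CPM in the low libraries. Interferon-induced genes had a median of -0.05. In the dendritic list 2 of 18 were separated lower, the lectin Clec9a (-0.52 ± 0.25) and the invariant chain Cd74, which was at 743, 639, 868 and 972 CPM in the high and 757, 1139.9, 1095 and 1003 CPM in the low libraries (-0.33 ± 0.14).

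Alveolar epithelial genes stood lower in the high Fn1 libraries. In these whole slices, fewer cells of a type and less RNA per cell cannot be told apart. In the alveolar type 1 list 18 of 20 genes were negative, 7 were separated lower (Rtkn2, Ager, Cav1, Cldn18, Emp2, Col4a3 and Col4a4) and 0 higher, and the median was -0.30 (-0.45 in batch 1 and -0.18 in batch 2). Rtkn2, used as a type 1 marker, stood at 87.6, 60.2, 115 and 199.99 CPM in the high and 214, 138, 208 and 219 CPM in the low libraries, against 285 to 317 CPM in saline. High libraries were below the low ones of their batch, but low replicate 7 lay below high replicate 4 (-0.86 ± 0.27). Ager, the type 1 membrane receptor, was at 321, 341, 495 and 640.3 CPM in the high and 443, 411, 652 and 731 CPM in the low libraries (-0.34 ± 0.11), and batch 1 was lower than batch 2 in both groups. Vegfa, an endothelial growth factor that type 1 cells make, was at 403, 362, 437 and 542 CPM in the high and 718, 529, 509.6 and 620.1 CPM in the low libraries (-0.47 ± 0.16) and separated in batch 1 only. Hopx, a transcriptional regulator, differed by -0.29 ± 0.16.

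All 19 tested genes of the alveolar type 2 list had a negative difference, with a median of -0.45 (-0.58 and -0.38 by batch), and 2 were separated lower. Sftpc, a surfactant protein gene, was at 969.9, 1011, 1602 and 3129.5 CPM in the high and 2258, 1362, 2851 and 4078 CPM in the low libraries (-0.72 ± 0.25), and in saline at 2949 to 4427 CPM. The high libraries of batch 1 lay below its low ones, whereas high replicate 4 lay between the low libraries of batch 2. Sftpb, another surfactant gene, differed by -0.25 ± 0.18 and was not separated in either batch. The 2 separated members, Scd1 and Fasn, encode lipid enzymes, but this count turned on single libraries: without replicate 2, or without replicate 4, 12 of 19 were separated lower, where 6.45% and 8.16% of all genes were. Scd1, the stearoyl-CoA desaturase, stood at 918, 899, 1362 and 2220.0 CPM in the high and 2711, 1613, 3238 and 2621 CPM in the low libraries (-0.99 ± 0.22) and Fasn, fatty acid synthase, at 282, 291, 318 and 597 CPM in the high and 713, 366, 1168 and 779 CPM in the low libraries (-1.02 ± 0.27). Saline libraries ranged from 437 to 1497 CPM for Fasn and from 1277 to 4326 CPM for Scd1, both wider than the difference between the groups. In the list of cholesterol and fatty acid synthesis, which holds both, 6 of 22 were separated lower and 0 higher, with a median of -0.12. The other enzymes of fatty acid synthesis behaved likewise: Elovl6, an elongase, was at 15.8, 15.5, 16.3 and 15.5 CPM in the high and 33.6, 24.6, 41.6 and 19.3 CPM in the low libraries (-0.93 ± 0.22), and Acaca, acetyl-CoA carboxylase, at 81.2, 84.8, 63.8 and 84.9 CPM in the high and 157, 93.1, 169 and 109 CPM in the low libraries (-0.76 ± 0.20), both without overlap between groups. Elovl6 spread widely in saline too, from 24.3 to 123 CPM. Adipocytes also make these enzymes. The adipocyte marker list summed to 68.5 to 400.1 CPM in the high and 169 to 376 CPM in the low libraries. Of its 10 genes 8 were negative, with a median of -0.88 (0.09 in batch 1 and -2.02 in batch 2), which was -1.63 without replicate 8 and -0.51 without replicate 1. Adipocyte genes thus stood lower along with the lipid enzymes in batch 2, and their part in these differences was not tested.

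Genes of the transitional epithelial state, which appears between type 2 and type 1 cells after injury, were higher by a little: 17 of 19 were positive and 2 separated higher, Plaur and the growth factor Mdk (median 0.20). Plaur, the urokinase receptor, was at 42.4, 35.9, 32.2 and 24.7 CPM in the high and 30.96, 27.98, 18.4 and 19.4 CPM in the low libraries (0.48 ± 0.14). Cldn4 differed by 0.57 but was not among the separated genes. Krt8 (0.12 ± 0.16) and Clu (0.13 ± 0.17) differed by less than their standard error. All 19 tested ciliated cell genes were negative, with a median of -0.42, mostly in batch 2 (-0.10 in batch 1 and -0.67 in batch 2); it was -0.20 without replicate 1. Sec14l3, a lipid-binding gene of ciliated cells, was at 456, 409.9, 416 and 716 CPM in the high and 618, 468, 741 and 1024 CPM in the low libraries (-0.49 ± 0.19), and Dnah5, an axonemal dynein, was the other separated gene (-0.54 ± 0.24). Club and goblet genes had opposite signs in the batches (0.37 and -1.05). How much airway each slice held is not given, and the part of airway content was not tested.

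Among endothelial genes, capillary markers stood lower and several markers of larger vessels higher. In the capillary list 18 of 23 were negative, 3 separated lower (Hpgd, Car4 and Apln) and 2 higher (Tbx2 and Cxcl12). The median was -0.25, or -0.10 without replicate 5, and it was smaller in batch 2 (-0.07) than in batch 1 (-0.22). Hpgd, the prostaglandin-degrading dehydrogenase, was at 47.7, 51.3, 74.3 and 92.5 CPM in the high and 128, 81.1, 119.6 and 118 CPM in the low libraries, against 266 to 339 CPM in saline (-0.81 ± 0.17). Car4, a carbonic anhydrase of gas-exchange capillaries, was at 16.4, 16.9, 26.4 and 20.6 CPM in the high and 31.99, 23.3, 29.6 and 29.2 CPM in the low libraries (-0.55 ± 0.16), and saline at 53.1 to 73.9 CPM. In both genes the low libraries were themselves below all saline libraries, and the high ones further below within each batch. Epas1, a hypoxia-regulated transcription factor abundant in capillaries, differed little (-0.19 ± 0.11). Of 20 large vessel genes, 5 were separated higher (Vwf, Col15a1, Selp, Vcam1 and Nr2f2) and 0 lower. The list as a whole was divided, with 11 genes positive and 9 negative. Its median was only 0.15, and 0.04 without replicate 1, and its level was not separated in either batch. Vwf, von Willebrand factor, stood at 654, 788, 737 and 542 CPM in the high and 385, 469.9, 503 and 539 CPM in the low libraries (0.52 ± 0.14) and Col15a1, a collagen of vessel basement membranes, at 99.7, 143, 166 and 90.6 CPM in the high and 60.9, 87.3, 81.2 and 60.04 CPM in the low libraries (0.77 ± 0.21), with no overlap between the groups. Selp, P-selectin, which catches leukocytes on veins, was at 23.2, 20.6, 23.4 and 9.36 CPM in the high and 6.64, 14.01, 6.31 and 6.08 CPM in the low libraries (1.22 ± 0.30). In the lymphatic list 8 of 9 tested genes were positive, with Reln, a secreted glycoprotein, at 78.96, 85.8, 71.6 and 67.98 CPM in the high and 36.7, 47.5, 56.9 and 57.1 CPM in the low libraries (0.63 ± 0.14).

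**Figure D4:**
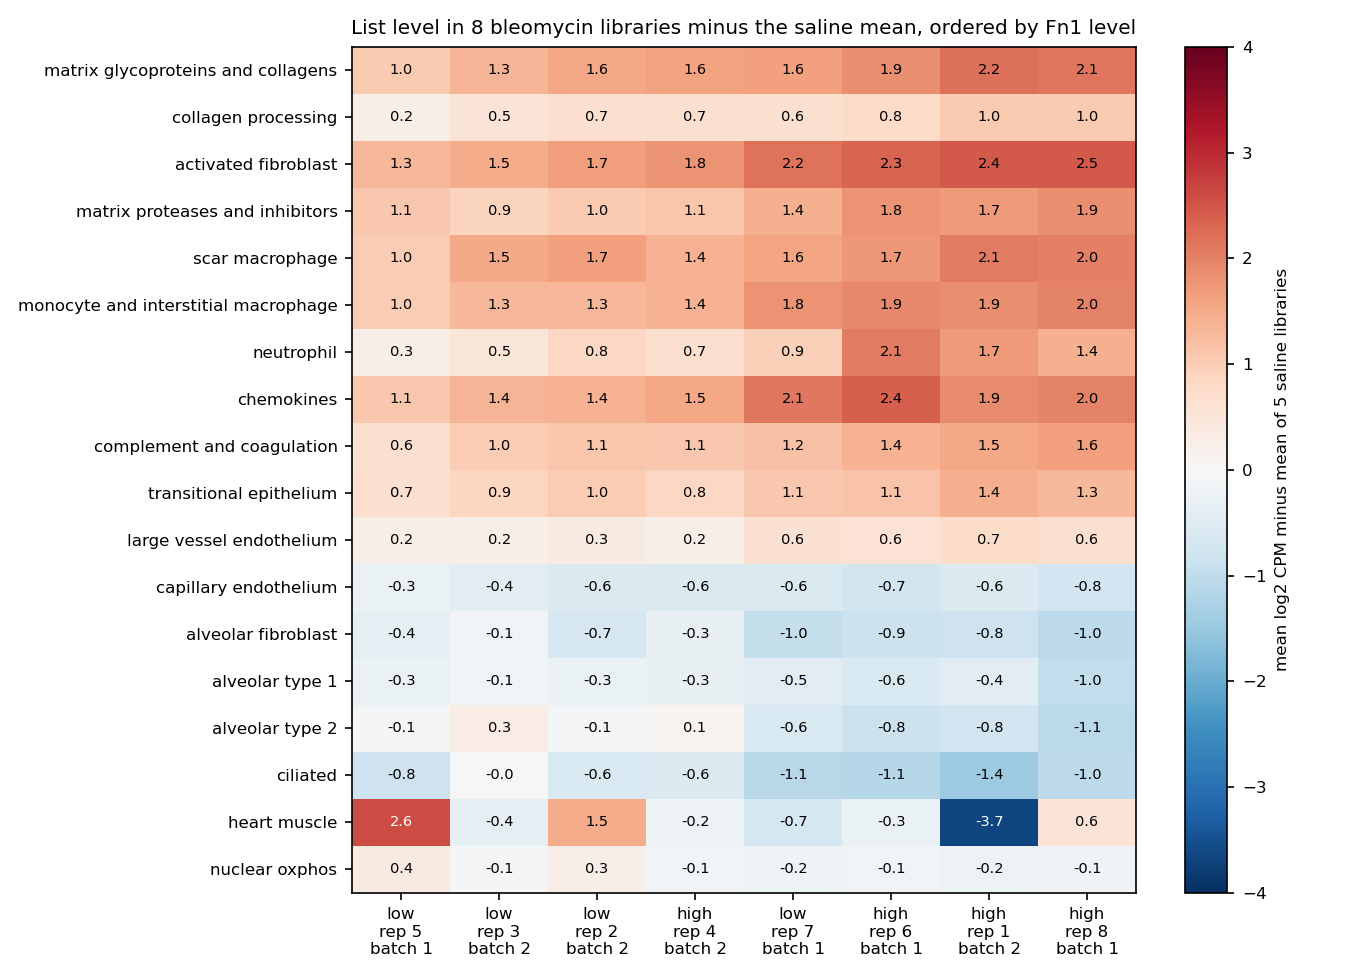
Mean log2 CPM of each of 18 lists in the 8 bleomycin libraries minus its mean over 5 saline libraries, with the libraries ordered from the lowest to the highest Fn1 level and the value printed in each cell. The matrix list goes from 1.0 in replicate 5 to 2.2 in replicate 1 and 2.1 in replicate 8, while high replicate 4 and low replicate 7 both stand at 1.6.

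Read library by library, the lists formed a range and not 2 classes. The matrix list, as mean log2 CPM, lay between 7.03 and 7.65 in the low libraries, 7.61 and 8.21 in the high ones and 5.84 and 6.14 in saline. The alveolar type 1 list lay between 7.63 and 7.97 in the low, 7.12 and 7.79 in the high and 7.96 and 8.28 in saline libraries. For both lists the groups were apart within each batch and overlapped across batches. Replicate 4, the last to enter the high group, was near the low libraries of its batch in the neutrophil and alveolar type 2 lists. In the scar macrophage, lysosome and transitional lists, among others, it lay below both low libraries of its batch. Without replicates 2 and 4, the closest pair on either side of the division, the matrix median was 0.77 and the type 2 median -0.77.

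The batches share no bleomycin library, so genes picked in one can be read in the other, although both rest on the Fn1 ranking. Among 12901 genes that averaged 5 CPM or more, 116 were at least 2-fold higher and separated in batch 1, and 92 of them (79.31%) were also higher in batch 2, where 51.59% of all genes were. Of 81 picked as lower in batch 1, 70 (86.42%) were lower in batch 2, against 48.41% of all. Picked in batch 2, 37 of 47 higher genes (78.72%) were higher in batch 1, against 53.66% of all, and 93 of 153 lower genes (60.78%) were lower, against 46.34%. These shares leaned on single libraries. Without replicate 1 the share of higher genes picked in batch 2 was 42.22%, and without replicate 5 that of higher genes picked in batch 1 was 51.19%, at or below the shares of all genes (53.49% and 51.7%). For lower genes picked in batch 2 the share was 47.17% without replicate 6 and 48.97% without replicate 5. These lay near the shares of all genes (47.14% and 48.44%). Across all 12901 genes, which are not independent replicates, the differences in the batches correlated weakly (Pearson's r 0.20, Spearman's rho 0.26), and this describes these libraries only.

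**Figure D5:**
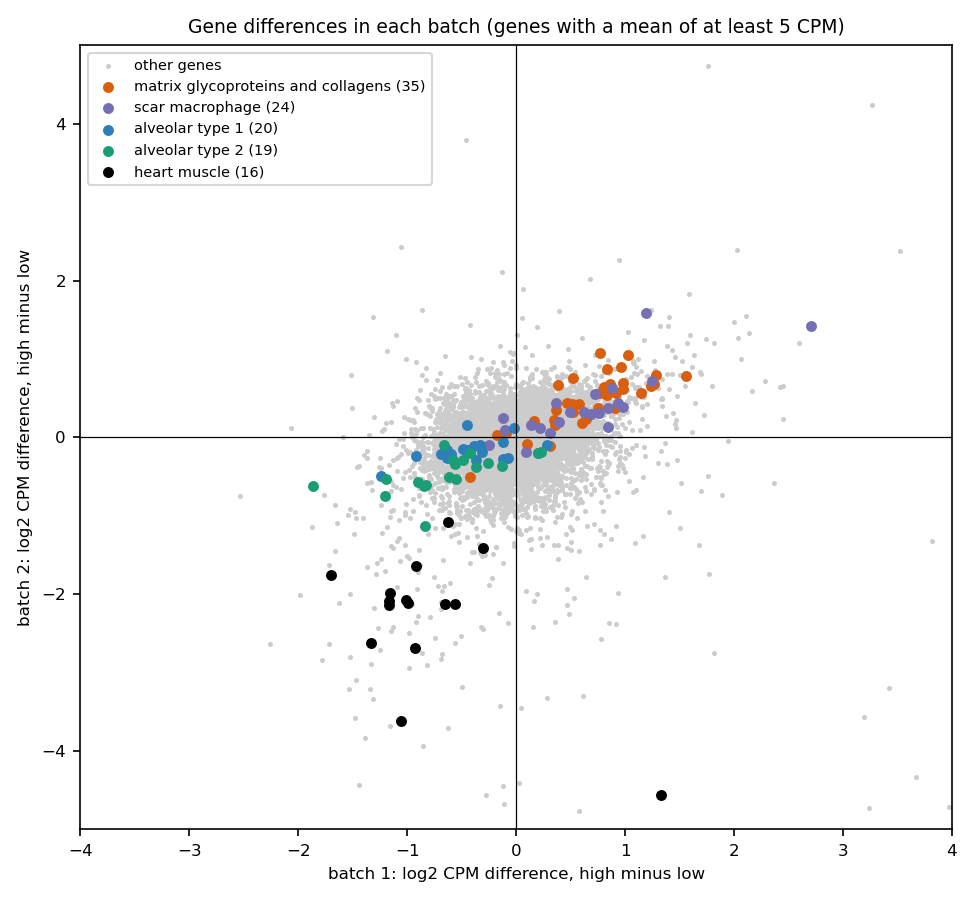
Log2 CPM difference, high minus low Fn1 libraries, in batch 1 (x axis) and batch 2 (y axis) for 12901 genes that averaged 5 CPM or more, 17 of them outside the axes; genes of 5 lists are coloured. Matrix and scar macrophage genes lie mostly at the upper right, alveolar type 1 and type 2 genes at the lower left, and heart muscle genes far down the lower left.

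Some RNA classes that are not markers of lung scarring also differed between the Fn1 groups. All 16 heart muscle genes had a negative difference with a median of -1.55, and 0 were separated; Myh6, the atrial myosin heavy chain, was at 359, 1101, 56.7 and 1012 CPM in the high and 2508, 345, 1829 and 605 CPM in the low libraries (-1.10 ± 1.11). Without replicates 2 and 5, a pair chosen after seeing the data, the median of this list was 0.15. Those of the matrix (0.48), scar macrophage (0.40), type 1 (-0.30) and type 2 (-0.45) lists kept their signs. Several other medians were smaller in those 6 libraries: 0.45 for activated fibroblasts, 0.21 for monocytes and interstitial macrophages and 0.19 for chemokines. Genes at an unadjusted p under 0.05 on the higher side numbered 14 in the matrix list, against 24 with all 8 libraries, and 5 in the scar macrophage list, against 11. Over all tested genes this count fell too, from 773 of 19986 with all 8 libraries to 300 of 20873. Genes for mitochondrial proteins, which heart muscle expresses strongly, were lower: 22 of 22 nuclear genes of oxidative phosphorylation had a negative difference with a median of -0.27, which was -0.01 without those replicates. The 15 genes of the mitochondrial genome were at -0.66, and -0.23 without them. Replicate 5 also had the lowest Fn1 level of the bleomycin libraries, so leaving it out changed the Fn1 contrast as well. The part of heart tissue in the differences above was not tested. Mitochondrial transfer RNAs, a list added after their values were seen, were lower in 17 of 17 cases with 10 separated and a median of -1.28, and -1.25 without replicates 2 and 5. They took 0.0503%, 0.0267%, 0.0258% and 0.0367% of counts in the high libraries, 0.116%, 0.0841%, 0.0418% and 0.0818% in the low ones and 0.213% to 1.96% in saline. Short RNAs of this kind can vary with fixation and library preparation, and the part of RNA quality in these differences was not tested.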

How the data were processed

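Total RNA was measured in 13 mouse lung libraries made with a stranded total RNA kit for low input (SMARTer Stranded Total RNA-Seq v3 Pico), per the labels. The deposited counts are whole numbers per gene symbol (54513 symbols) with no normalization. For the authors' steps the submitters' processing notes name featureCounts 2.0.3, STAR 2.7.10b, cutadapt 4.4, DESeq2 1.42.1 and build mm39. The strand setting, the annotation and any use of molecular identifiers were not given in the sources used here, so overlapping genes may share reads. Even numbers made up 78.4% to 86.1% of low counts, so a count is not an independent molecule. The deposited normalized table was not used.

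A script ranked the 8 bleomycin libraries by Fn1 CPM within batch. The fit used edgeR 4.0.16 in R 4.3.3: filterByExpr (minimum count 10), TMM factors, robust glmQLFit and glmQLFTest with batch and group, Benjamini-Hochberg adjustment and a threshold of 0.05. Levels are CPM from TMM-scaled totals, and list levels average log2 CPM (prior count 2) over the tested genes. A standard error is the log2 difference divided by the root of its F statistic. The coefficient of variation was 0.295. Totals ran from 6337147 to 28885129 counts. No 2 bleomycin libraries were duplicates (chi-square per degree of freedom 10.1 to 267 over 28 pairs). Nothing says that libraries are separate animals, so p-values reflect no more than the spread among these libraries, which may be technical. All saline libraries are in batch 1, so their levels are background and enter no test.

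The named genes were up to 4 of each of 53 lists by lowest p and 37 marker genes whatever their value; the class of the largest differences among called genes was empty. Genes outside this rule were named after their values were seen: Hspg2, Col4a3, Col4a4, Tgfbr2, Nr2f2, Tbx2, Cxcl12, Mdk, Pdgfa, Cav1, Cldn18, Emp2, Col8a1 and those in the closing observations. Some genes that the rule named are not reported here. The groups, lists and rule were chosen with earlier results of these data known. The alternatives were RLE factors, DESeq2 1.42.0, limma-voom (limma 3.58.1), other filters, no batch term, all 13 libraries, a continuous Fn1 term, each batch alone and leaving out libraries. The code was tested on simulated data.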

Additional observations from a re-analysis of the deposited data

Results flagged for a closer look

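Of 288 groups of 4 libraries checked over 144 named genes, 16 held a library far from the other 3, about what chance gives at 1 in 20. In the high group, replicate 4 was the odd library for C1qc (64.2 CPM, the others 88.5 to 90.2 CPM), Fasn (597 CPM, the others 282 to 318 CPM), Sec14l3 (716 CPM, the others 409.9 to 456 CPM) and Sftpb (1172 CPM, the others 655 to 697 CPM). In the same group replicate 8 was low for Hopx (73.6 CPM, the others 123 to 129 CPM) and replicate 6 for Mdk (9.70 CPM, the others 14.5 to 15.2 CPM). In the low group, replicate 7 stood apart for Eln (1520.0 CPM, the others 789 to 884 CPM), Loxl2 (81.1 CPM, the others 46.6 to 50.7 CPM), Selp (14.0 CPM, the others 6.08 to 6.64 CPM), Aldh18a1 (24.0 CPM, the others 16.9 to 17.9 CPM) and Rtkn2 (138 CPM, the others 208 to 219 CPM). Replicate 5 stood apart for Emilin1 (73.4 CPM, the others 102 to 105 CPM), Lgmn (98.1 CPM, the others 142 to 148 CPM), Tagln (68.9 CPM, the others 123 to 127 CPM) and the mitochondrial gene mt-Nd6 (590.0 CPM, the others 305 to 324 CPM), and replicate 2 for Csf3r (26.8 CPM, the others 22.7 to 23.1 CPM).

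High and low libraries stood in opposite order in the 2 batches for 4 list levels and 2 genes, a difference that was not tested at the level of these lists. On the log2 scale the smooth muscle list differed by 0.30 in batch 1 and -0.44 in batch 2, club and goblet by 0.37 and -1.40, hypoxia targets by 0.12 and -0.14, and clock genes by 0.22 and -0.23. Acta2 differed by 0.67 and -0.15 and the ciliary transcription factor Foxj1 by 0.27 and -0.60. A batch by group term in edgeR called 0 of 19987 genes (667 at an unadjusted p under 0.05).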

How the results depend on the processing

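The continuous Fn1 term aside, 19 alternatives were run. Of 143 named genes, 128 kept their sign in all 19 and 3 (Lrrc15, Mmp13 and Wif1) in the 18 that tested them. The other 12 were Acta2, Cd3e, Cd79a, Clu, Foxj1, Krt8, Lcn2, Malat1, Mki67, Myh6, Scgb1a1 and Tagln. Many of the 143 were picked by low p in these same libraries, which the alternatives reuse, so kept signs were largely built in. Of 54 lists, 36 kept the sign of their median in all 19 and 18 did not. The matrix, activated fibroblast, protease, macrophage (scar; monocyte and interstitial), alveolar type 1, type 2 and capillary medians kept theirs in all 19, but their sizes moved. Without replicate 5 the medians were 0.42 for activated fibroblasts, -0.16 for alveolar fibroblasts, 0.64 for neutrophils, 0.18 for chemokines, -0.67 for heart muscle, -0.14 for nuclear oxidative phosphorylation and -0.28 for the mitochondrial genome. Without replicate 7 they were 1.01 for activated fibroblasts, 0.24 for large vessels, 0.66 for chemokines and 0.29 for mitosis. Without replicate 8 they were 0.18 for TGF-β, -0.17 for alveolar fibroblasts, -0.20 for type 1 and 0.46 for chemokines. Without replicate 1 the lysosome median was 0.14, without replicate 3 the ciliated one -0.21, without replicate 6 that of cholesterol and fatty acid synthesis -0.20, without replicate 4 those of chemokines 0.46, B and plasma cells 0.185 and mitosis 0.36, and without replicate 2 that of mitosis 0.45. Medians of T and NK cells, alveolar macrophages and interferon-induced genes changed sign without single libraries. Those of the matrix, collagen processing, protease, scar macrophage, type 2, transitional, complement and mitochondrial transfer RNA lists moved by less than 1.5 times. Leaving out a library makes separation easier by construction: 1122 to 1863 genes were then separated higher and 1056 to 1630 lower, with up to 23 of 35 matrix, 16 of 24 scar macrophage and 6 of 9 neutrophil genes higher and 12 of 20 type 1 and 8 of 23 capillary genes lower. The number of genes called was 0 with RLE factors, limma-voom, a floor of 5 CPM, no batch term, all 13 libraries and either batch alone, but 67 by DESeq2, 381 without a filter on low counts and 872 with continuous Fn1. Leaving out single libraries gave 0 to 6 calls (6 without replicate 4, 1 without replicate 7). Leaving out replicates 2 and 4 together gave 1 and leaving out replicates 2 and 5 together gave 0, both pairs chosen after seeing the data. Shares of genes that kept their direction in the other batch were, for higher genes picked in batch 1, 59.88% with a floor of 1 CPM, 86.79% with 20 CPM and 51.19% (without replicate 5) to 85.47% without single libraries. For lower genes picked in batch 1 they were 68.22% at 1.5-fold, 93.75% at 3-fold, 70.29% and 95% with floors of 1 and 20 CPM, and 64.37% to 89.41% without single libraries. For higher genes picked in batch 2 they were 61.18% and 92.31% with those floors and 42.22% (without replicate 1) to 88.64%, and for lower genes picked in batch 2 they were 47.17% (without replicate 6) to 71.05%, without single libraries. The 47.17% was near the share of all genes in that setting, 47.14%. The causes were not tested. Depth limits genes of a few CPM, above all in replicates 1 and 4. No paired analysis was possible because the high and low groups share no replicate numbers.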

Other observations

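Genes outside the fixed lists were also among those that sorted first in the 8-library fit; they are given as a description, were chosen after their values were seen, and rest on groups chosen by Fn1. Bmper, which encodes a secreted binder of bone morphogenetic proteins, stood at 40.5, 46.9, 44.2 and 25.6 CPM in the high and 14.4, 22.2, 19.3 and 17.6 CPM in the low libraries, against 9.88 to 17.2 CPM in saline (log2 difference 1.08 ± 0.19). All high libraries exceeded all low ones, and the low libraries were near the saline range. Angptl4, a secreted inhibitor of lipoprotein lipase, was at 64.6, 77.6, 53.2 and 42.7 CPM in the high and 32.9, 44.3, 33.2 and 27.1 CPM in the low libraries, against 19.6 to 26.6 CPM in saline (0.77 ± 0.14), with low replicate 7 above high replicate 4. Col28a1, a short-chain collagen related to type VI, was at 28.3, 32.3, 24.9 and 17.2 CPM in the high and 8.98, 11.7, 15.5 and 11.1 CPM in the low libraries, against 1.33 to 2.91 CPM in saline (1.12 ± 0.22). The proprotein convertase Pcsk5 (0.74 ± 0.14) and the ubiquitin ligase Pdzrn3 (0.66 ± 0.12) also had no overlap between the groups. Irx1, a homeobox gene, was at 30.5, 31.7, 39.6 and 46.3 CPM in the high and 44.4, 41.96, 65.1 and 61.8 CPM in the low libraries, against 34.3 to 56.5 CPM in saline (-0.53 ± 0.10).

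Nox4, an oxidase that makes hydrogen peroxide, ran against the order of the treatment groups. It was at 75.4, 72.4, 77.9 and 58.04 CPM in the high and 43.8, 62.9, 50.8 and 51.5 CPM in the low libraries (0.43 ± 0.13), and at 80.5 to 89.8 CPM in saline, so within each batch the high Fn1 libraries were nearer to saline than the low ones, although high replicate 4 lay below low replicate 7.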
